A study of Mus musculus with 4 samples.

Results

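MHC class I genes and the genes that load peptide onto class I molecules were described in single CD4 T cells of the mouse colon. The 10 genes were chosen by name: B2m, H2-K1, H2-D1, H2-Q7, H2-T23, Tap1, Tap2, Tapbp, Erap1 and Nlrc5. They are 10 of the 25724 gene columns of 1 table of counts, and they were followed in the 1050 of 1985 barcodes that had at least 500 counts, at least 200 detected genes and under 20% mitochondrial counts. All 4 samples carry the group name Btheta_colon and are numbered in their titles, and all come from male B6 mice aged 6 weeks. Cells were taken from the colon lamina propria, sorted as CD45+ TCRb+ CD4+, and profiled by inDrops, which captures polyadenylated RNA from single cells in droplets. The barcodes carry no sample name, so the table was treated as 1 sample without replicates. No p-value is given, and no 95% interval below covers the spread between mice. Intervals of levels and ratios cover counting error only, and those of shares of barcodes cover the sampling of barcodes taken as independent.

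Nearly all nucleated cells carry MHC class I molecules. A class I molecule is a heavy chain held with beta-2 microglobulin and a short peptide, and it shows that peptide to CD8 T cells and natural killer cells. Peptides cut by the proteasome are pumped into the endoplasmic reticulum by the transporter TAP, trimmed there by aminopeptidases, and placed in the groove with the help of tapasin and calreticulin. Interferon gamma, a product of Th1 cells, is known to raise these genes, and NLRC5 acts as their transactivator on promoters bound by the RFX complex, CREB family proteins and NF-Y.

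Cells were grouped by 3 gates. A barcode was Foxp3-positive with at least 1 count of Foxp3, the defining factor of regulatory T cells, and Gata3-positive with at least 1 count of Gata3, a factor of type 2 and tissue regulatory T cells. It was positive for the type 1 gate with a count of Tbx21, Ifng or Nkg7, which are the Th1 factor, its cytokine and a cytotoxic granule gene. Foxp3 was detected in 332 of the 1050 barcodes, Gata3 in 572, and a type 1 gate gene in 160. A barcode without a count of a gate gene may still hold its transcript, so a negative side can contain cells of the positive kind.

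The 10 genes are all protein coding, and 7 of them lie in the MHC region of chromosome 17 in GENCODE M21 (build GRCm38). Along that chromosome, Tapbp lies at chr17:33915899-33929292 and H2-K1 at chr17:33996017-34000347, Tap1 at chr17:34187553-34197225 and Tap2 at chr17:34203527-34216321. H2-D1 lies at chr17:35262730-35267499, H2-Q7 at chr17:35439155-35443773 and H2-T23 at chr17:36029773-36032855. The other members are on other chromosomes, B2m at chr2:122147686-122153083, Erap1 at chr13:74639568-74693201 and Nlrc5 at chr8:94434356-94527272.

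The RefSeq promoters of 3 members are shown because their motif matches lie in a similar layout and these genes are among those with the most counts here. Each sequence is the 200 bases before the RefSeq start in build GRCm38.p6, written 5′ to 3′ on the strand of the gene. B2m is from chr2:122147487-122147686 on the plus strand, H2-K1 from chr17:34000334-34000533 on the minus strand and H2-Q7 from chr17:35438955-35439154 on the plus strand. The table has 2 starts for H2-K1, and the other genes shown have 1. Capitals mark matches to a kappa B site (GGGGA followed by TTCCC), an interferon-stimulated response element (GAAA, NN, GAAA) or a shorter form of it (GAA, NN, GAAA), the X2 site core (TGACG) and the NF-Y box (CCAAT), each searched on both strands.
B2m: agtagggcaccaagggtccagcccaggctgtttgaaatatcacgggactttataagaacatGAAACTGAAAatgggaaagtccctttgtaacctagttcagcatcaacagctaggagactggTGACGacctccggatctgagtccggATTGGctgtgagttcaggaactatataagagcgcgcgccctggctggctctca
H2-K1: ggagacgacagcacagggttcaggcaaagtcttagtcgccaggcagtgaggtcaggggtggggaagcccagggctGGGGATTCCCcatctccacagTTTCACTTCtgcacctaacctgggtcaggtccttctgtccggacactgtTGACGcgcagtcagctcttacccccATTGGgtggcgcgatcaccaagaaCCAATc
H2-Q7: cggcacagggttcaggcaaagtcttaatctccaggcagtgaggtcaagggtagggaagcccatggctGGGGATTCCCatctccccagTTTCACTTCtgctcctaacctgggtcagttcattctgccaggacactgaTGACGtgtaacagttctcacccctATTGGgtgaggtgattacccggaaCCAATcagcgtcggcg

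Of the 10 members, 8 had a promoter in the table. TGACG followed by ATTGG, which is CCAAT on the other strand, within 10 to 30 bases was found in 4 of these 8, namely B2m, H2-K1, H2-D1 and H2-Q7, and in 0.692% of the promoters of 27025 genes. The gap between them was 20 bases in B2m, H2-K1 and H2-D1 and 19 bases in H2-Q7. TGACG itself was in 5 of the 8 and in 17.5% of all promoters, and CCAAT was in 6 of the 8 and in 32.7% of all. These 2 motifs overlap with the paired pattern by construction.

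The kappa B letters were in 3 of the 8 members, H2-K1, H2-D1 and H2-Q7, against 0.0777% of all promoters. The same 3 held the shorter interferon response element, found in 5.79% of all, and B2m and H2-T23 held the longer one, found in 2.65%. Aligned locally, the H2-K1 and H2-D1 promoters were 89.6% identical over 154 columns and those of H2-K1 and H2-Q7 86.3% identical over 190. H2-K1 and B2m were 60.2% identical over 83 columns. A match is a description of letters and not a measured binding site.

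**Figure D1:**
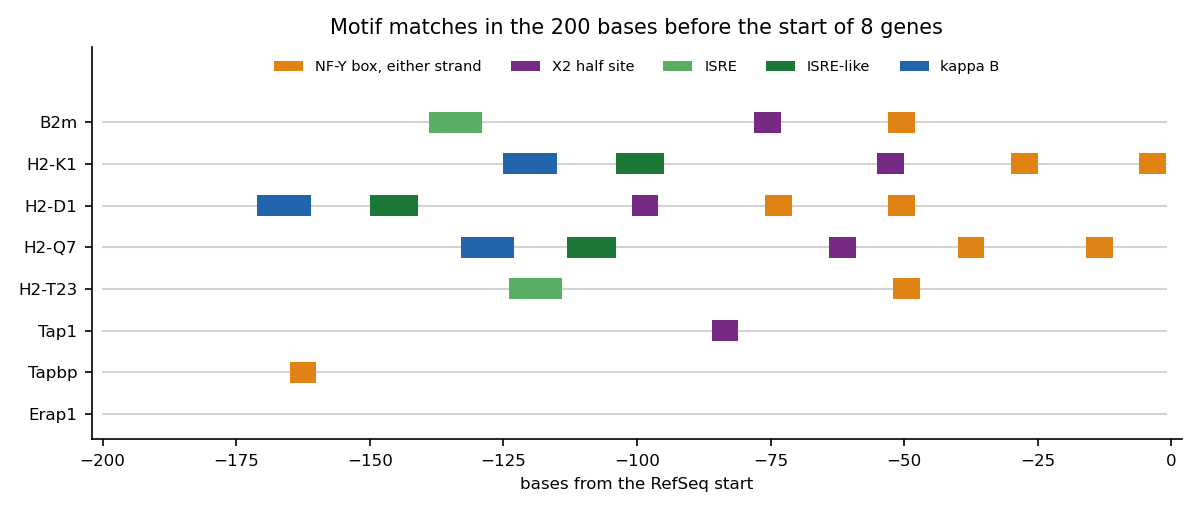
Position of motif matches in the 200 bases before the RefSeq start of the 8 members with a promoter in the table (horizontal axis in bases from the start, 1 line per gene, 1 coloured block per match). H2-K1, H2-D1 and H2-Q7 show the same order of kappa B site, interferon response-like element, X2 site and a pair of NF-Y boxes, while B2m has an interferon response element, an X2 site and 1 NF-Y box, and Erap1 shows none.

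The kept barcodes held 1549040 counts, from 501 to 13023 per barcode with a median of 1235.5. At least 1 of 8 T cell markers was detected in 97.7% of them, the CD8 genes Cd8a and Cd8b1 had 29 counts in all, and the 3 erythroid markers were at 0. Among them, 21 barcodes had at least 3 markers of an epithelial, stromal or endothelial, myeloid, or B or plasma cell list, and 14 of these 21 had no gate gene. In the 21 barcodes the 10 members summed to 3365 CPM (counts per 1000000 counts), against 13151 CPM in the rest, so the differences below are given with them, and without them where the text says so.

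The heavy chain partner and the classical heavy chains were detected in most cells. B2m, which encodes beta-2 microglobulin, had 6657 counts, a level of 4298 CPM (95% interval 4195 to 4402), and was detected in 96.7% of barcodes. H2-K1, a classical class I heavy chain, had 6669 counts, 4305 CPM (4203 to 4410), and was detected in 95.05%. H2-D1, the other classical heavy chain, had 2763 counts, 1784 CPM (1718 to 1851), and was detected in 82.8%. With each barcode thinned to 500 counts, B2m was still detected in 84.5%, H2-K1 in 81.7% and H2-D1 in 57.1%. In these thinned data the median barcode held 2 counts of B2m (range 0 to 12), 2 of H2-K1 (0 to 11) and 1 of H2-D1 (0 to 7).

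The nonclassical heavy chains were detected in fewer barcodes. H2-Q7, which encodes a Qa-family molecule, had 1499 counts, 968 CPM (919 to 1018), and was detected in 55.9% of barcodes and in 34.7% after thinning. H2-T23, whose product presents leader peptides to the NKG2 receptors, had 408 counts, 263 CPM (238 to 290), and was detected in 26.1%, or 11.1% after thinning. Of the 50-base words in the last 500 bases of the H2-T23 transcript, 38.1% also occur in other genes. The same share was 9.53% for H2-D1, 6.21% for H2-Q7 (in H2-Q5 and H2-Q10) and 0.443% for H2-K1, and 0 for the 6 other members. Counts of H2-T23, H2-D1 and H2-Q7 are therefore uncertain, since the handling of reads that match several genes is not given in the sources used here.

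Loading and trimming genes and the transactivator were each detected in a minority of barcodes. Tapbp, which encodes tapasin, had 860 counts, 555 CPM (519 to 594), and was detected in 35.0% of barcodes. The subunits of the TAP transporter, Tap1 and Tap2, had 275 counts (178 CPM, 157 to 200) and 380 counts (245 CPM, 221 to 271), in 16.8% and 20.1% of barcodes. Erap1, the aminopeptidase that trims peptides in the endoplasmic reticulum, had 54 counts (34.9 CPM, 26.2 to 45.5) in 42 barcodes. Nlrc5 had 41 counts (26.5 CPM, 19.0 to 35.9) in 33 barcodes. Counts were not scaled by transcript length, so levels of different genes were not ranked against each other.

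No single cell carried these totals. The barcode with the most counts of a gene held at most 4.21% of its total for the 9 members other than Nlrc5 (16 counts of Tap2 in 1 barcode), and 7.32% for Nlrc5. The 10 genes together had 19606 counts, 1.27% of all counts in the kept barcodes, and at least 1 of them was detected in 1049 of the 1050. At 500 counts per barcode their sum had a median of 6, with quartiles of 4 and 9 and a range of 0 to 23. Class I is made by nearly all nucleated cells, so the table holds no cell type that should lack these genes and could serve as a blank.

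Foxp3-positive cells had more transcript of the classical heavy chains per total count, mainly H2-K1 and less so H2-D1. Tapasin transcript was also higher with all counts, but not detectably at equal depth. H2-K1 stood at 5120 CPM (4926 to 5319) in the 332 Foxp3-positive barcodes and 3900 CPM (3781 to 4022) in the 718 Foxp3-negative barcodes, a log2 ratio of 0.39 (95% interval 0.32 to 0.46). The ratio was 0.35 (0.27 to 0.42) without the 21 barcodes that carried markers of other cell types. At equal depth the share of barcodes with H2-K1 was 86.1% (81.9 to 89.7%) with Foxp3 and 79.7% (76.5 to 82.5%) without, and these intervals overlap slightly. Median depth was 1304.5 counts on the positive side and 1215 on the negative side.

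Tapbp stood at 663 CPM (594 to 737) against 502 CPM (460 to 547), a log2 ratio of 0.40 (0.20 to 0.60), and 0.41 (0.20 to 0.61) without the 21 barcodes. In thinned counts it was 0.14 (-0.23 to 0.50), so at equal depth a difference in Tapbp was not detectable. H2-D1 was higher by a log2 ratio of 0.20 (0.08 to 0.31), at 1951 against 1701 CPM, and by 0.15 (0.04 to 0.26) without the 21 barcodes. B2m differed by 0.09 (0.02 to 0.17), at 4488 against 4203 CPM, and by 0.04 (-0.03 to 0.11) without them.

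For the remaining members the interval by Foxp3 included 0, apart from Nlrc5. H2-Q7 stood at 964 against 970 CPM, a log2 ratio of -0.01 (-0.17 to 0.15), and H2-T23 at 266 against 262 CPM, 0.02 (-0.28 to 0.32). The transporter subunits gave 0.29 (-0.08 to 0.65) for Tap1 and 0.13 (-0.18 to 0.44) for Tap2, and Erap1 gave 0.24 (-0.63 to 1.08). Leaving out the 21 barcodes, these 5 ratios were -0.06, -0.04, 0.25, 0.10 and 0.23 in the same order, each with an interval that included 0. Nlrc5, the class I transactivator, was lower in Foxp3-positive cells, with 6 counts (11.7 CPM, 4.28 to 25.4) against 35 counts (33.8 CPM, 23.6 to 47.1). Its log2 ratio was -1.54 (-3.08 to -0.27), and -1.60 (-3.14 to -0.33) without the 21 barcodes. It rests on 41 counts, and with gates and values both taken from thinned counts it was -0.08 (-3.31 to 2.15). Among genes with at least 20 counts, Nlrc5 was the 1 of 10 members at least 1.5-fold lower, against 16.9% of all genes. It was also the 1 of 10 with an interval below 0, against 9.72%, so these counts are near or under the background.

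The Foxp3 differences of the members all lay under 1.5-fold, apart from Nlrc5, as did those of most genes. Of the 9 members with at least 50 counts, 0 were at least 1.5-fold higher and 0 at least 1.5-fold lower on the Foxp3-positive side, against 10.3% higher and 11.0% lower among the 4789 genes compared. Folds are narrower for abundant genes, and among genes with at least 200 counts the shares were 5.71% and 3.09%, with 0 of 8 members past 1.5-fold, which is near that background. The interval lay above 0 for 4 of the 9, against 12.7% of all genes, and for 3 of 9 without the 21 barcodes, against 12.3%. The members' median log2 ratio was 0.20 against 0.007 over all genes, and 0.15 against 0.015 without the 21 barcodes. Intervals are narrower for abundant genes. Among genes with at least 1000 counts, 27.1% had an interval above 0, as did 3 of the 4 members at that depth. Without the 21 barcodes these were 24.8% and 2 of 4. The 10 genes summed to 13964 CPM on the positive side and 12007 CPM on the negative side, a log2 ratio of 0.22 (0.18 to 0.26), and 0.17 (0.13 to 0.21) without the 21 barcodes. The epithelial markers were at 62.2 CPM on the positive side and 2801 CPM on the negative side, with Krt20, Car1 and Guca2a at 0 on the positive side.

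**Figure D2:**
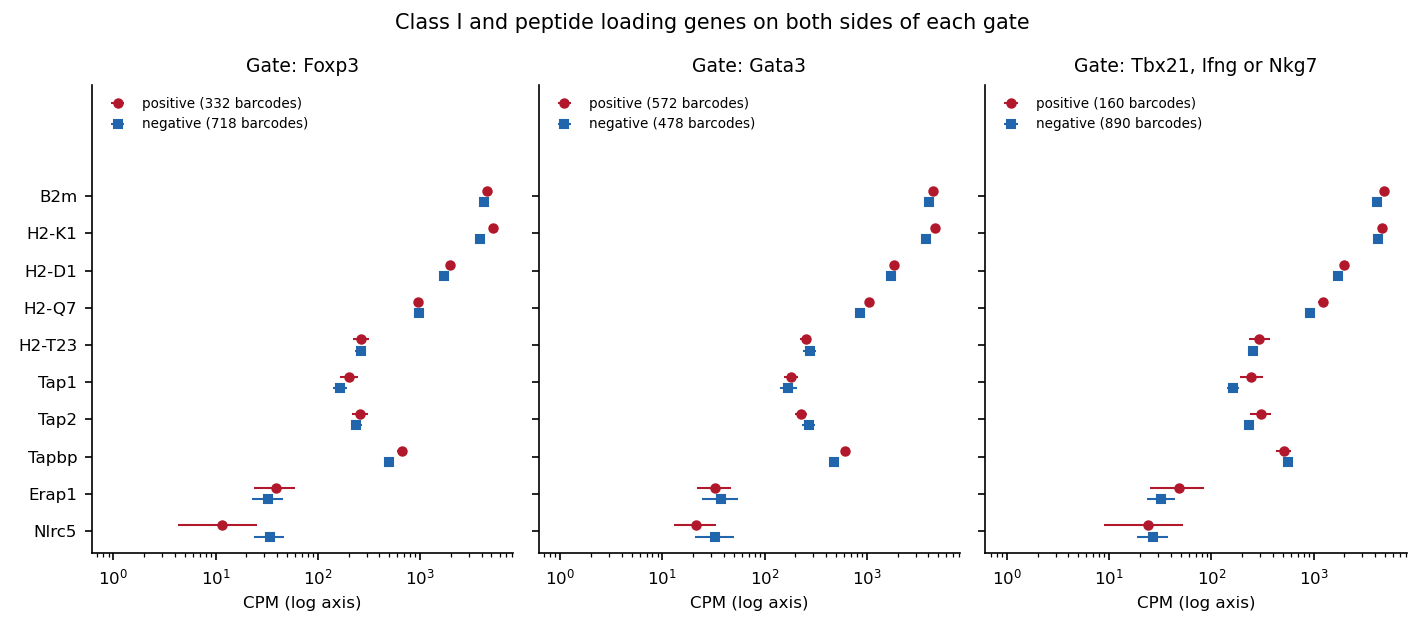
CPM of the 10 genes (log axis) in barcodes positive (circles) and negative (squares) for Foxp3, Gata3 or the type 1 gate genes, with exact Poisson 95% intervals as bars. H2-K1 is 5120 against 3900 CPM by Foxp3, and H2-Q7 is 1248 against 914 CPM by the type 1 gate.

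With all counts, Gata3-positive cells also had more H2-K1, Tapbp and H2-Q7, but the Tapbp and H2-Q7 differences were not detectable at equal depth. H2-K1 stood at 4679 CPM (4538 to 4824) in the 572 Gata3-positive barcodes and 3811 CPM (3664 to 3962) in the 478 others, a log2 ratio of 0.30 (0.22 to 0.37). It was 0.17 (0.10 to 0.24) without the 21 barcodes. H2-Q7 stood at 1056 against 851 CPM, 0.31 (0.16 to 0.46), and 0.16 (0.01 to 0.32) without the 21 barcodes. At equal depth the H2-Q7 difference was not detectable, with a log2 ratio of -0.0034 (-0.25 to 0.24) in thinned counts.

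Tapbp stood at 615 against 477 CPM by Gata3, a log2 ratio of 0.37 (0.16 to 0.57), and 0.38 (0.17 to 0.60) without the 21 barcodes, but 0.20 (-0.15 to 0.55) in thinned counts. B2m gave 0.13 (0.06 to 0.20) with all barcodes and -0.00094 (-0.07 to 0.07) without the 21. The intervals of H2-D1 (0.11), Tap1 (0.10), Tap2 (-0.25), H2-T23 (-0.15), Erap1 (-0.19) and Nlrc5 (-0.61) all included 0. In the absence of the 21 barcodes Tap2 was lower on the Gata3-positive side, at 229 against 293 CPM, -0.35 (-0.65 to -0.05).

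By Gata3, 0 of 9 members were at least 1.5-fold higher or lower, against 10.1% and 8.23% of all genes, and 4 of 9 had an interval above 0, against 11.4%. With the 21 barcodes left out, 3 of 9 had an interval above 0, against 9.79%, and 1 of 9, Tap2, an interval below 0, against 8.78%. Among genes with at least 1000 counts, 24.9% had an interval above 0, as did 3 of 4 members. Without the 21 barcodes these were 15.9% and 2 of 4. With at least 50 counts per gene, the median log2 ratio was 0.11 over the members and 0.033 over all genes. Without the 21 barcodes these medians were -0.0033 and 0.023, so the members were then not above all genes. The sum of the 10 genes was 13371 against 11713 CPM, a log2 ratio of 0.19 (0.15 to 0.23), and 0.07 (0.03 to 0.11) without the 21 barcodes. Epithelial markers stood at 23.8 CPM on the Gata3-positive side, with Krt20 and Klk1 at 0, and 4358 CPM on the negative side. Median depth was 1336 and 1161 counts.

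Cells with a type 1 gate gene had more H2-Q7 and Tap1 per total count, but the Tap1 difference was not detectable at equal depth. H2-Q7 was at 1248 CPM (1113 to 1396) in the 160 positive barcodes and 914 CPM (863 to 968) in the 890 others, a log2 ratio of 0.45 (0.26 to 0.63), and 0.38 (0.19 to 0.56) without the 21 barcodes. In thinned counts it was 0.34 (0.02 to 0.65). H2-Q7 was detected in 70.0% of positive and 53.4% of negative barcodes, and after thinning in 40% (32.4 to 48.0%) and 33.7% (30.6 to 36.9%), where the intervals overlap.

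Tap1 was at 246 CPM (189 to 317) against 164 CPM (143 to 188), a log2 ratio of 0.58 (0.15 to 1.0), and 0.52 (0.08 to 0.93) without the 21 barcodes. It rests on 61 counts on the positive side. In thinned counts the ratio was -0.02 (-0.96 to 0.81), so the difference was not detectable at equal depth. Smaller differences were seen for B2m at 0.21 (0.12 to 0.30), H2-D1 at 0.18 (0.03 to 0.32) and H2-K1 at 0.15 (0.06 to 0.24). Without the 21 barcodes B2m was at 0.14 (0.05 to 0.23), and the intervals of H2-D1 and H2-K1 then included 0. After thinning, B2m was detected in 81.9% of positive and 84.9% of negative barcodes, H2-K1 in 81.9% and 81.7%, and H2-D1 in 61.9% and 56.3%. These intervals overlapped for each gene.

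Tapbp was at 509 against 564 CPM by the type 1 gate, a log2 ratio of -0.15 (-0.43 to 0.13), and this interval includes 0. Tap2 gave 0.37 (-0.01 to 0.74), H2-T23 0.20 (-0.19 to 0.57) and Nlrc5 -0.15 (-1.69 to 1.12). Erap1 was the 1 of 9 members at least 1.5-fold higher, against 11.4% of all genes. Its log2 ratio of 0.59 (-0.47 to 1.54) rests on 12 counts on the positive side, and without the 21 barcodes it was 0.54, leaving 0 of 9 past 1.5-fold, against 11.2%. No member of the 9 was 1.5-fold lower, against 14.8%.

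The interval lay above 0 for 5 of 9 members by the type 1 gate, against 9.11% of all genes, and for 3 of 9 against 8.17% without the 21 barcodes. The members' median log2 ratio was 0.21 and that of all genes 0.0024, and 0.14 and 0.0057 without the 21 barcodes. Among genes with at least 1000 counts, 21% had an interval above 0, as did 4 of 4 members. Without the 21 barcodes these were 16.8% and 2 of 4. The 10 genes summed to 14206 CPM in positive and 12362 CPM in negative barcodes, 0.20 (0.15 to 0.25), and 0.14 (0.08 to 0.19) without the 21 barcodes. Median depth was 1241.5 and 1235.5 counts. Epithelial markers were at 40.4 and 2243 CPM, with Krt18, Krt19, Krt20, Car1, Vil1, Klk1 and Agr2 at 0 on the positive side, and myeloid markers at 8.08 and 287 CPM.

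**Figure D3:**
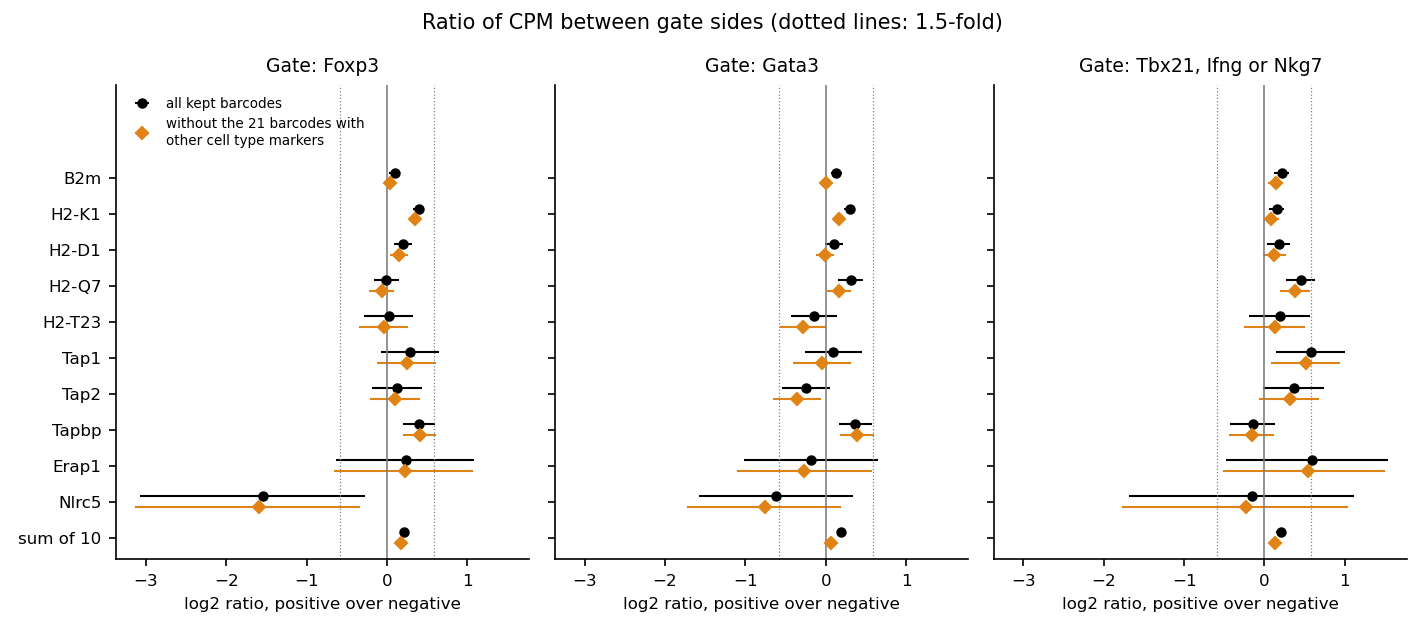
Log2 ratio of CPM, positive over negative, for each gene and for the sum of the 10 genes in 3 gates, with exact conditional 95% intervals, for all kept barcodes (black circles) and without the 21 barcodes with markers of other cell types (orange diamonds). Dotted lines mark 1.5-fold. H2-K1 and Tapbp lie right of 0 by Foxp3 and Gata3 with and without the 21 barcodes, and H2-Q7 and Tap1 by the type 1 gate.

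The same differences were looked at cell by cell at equal depth. With 500 counts per barcode, the summed members had a median of 7 in Foxp3-positive and 6 in Foxp3-negative barcodes, with ranges of 0 to 23 and 0 to 18. The medians were also 7 and 6 by Gata3 and by the type 1 gate, and the distributions overlapped over most of their range in each gate. At least 10 summed counts were found in 31.2% (24.2 to 39.0%) of barcodes with a type 1 gate gene and in 20.9% (18.3 to 23.7%) of those without. By Foxp3 these shares were 25% (20.4 to 30.02%) and 21.3% (18.4 to 24.5%), and by Gata3 24.5% (21 to 28.2%) and 20.1% (16.6 to 23.96%), with overlapping intervals in both. Leaving out the 21 barcodes gave shares of 31.4% (24.3 to 39.3%) and 21.4% (18.7 to 24.3%) by the type 1 gate, 25.3% and 21.8% by Foxp3, and 24.7% and 20.8% by Gata3. By the type 1 gate the intervals did not overlap, with or without them, but the margin was narrow in both. The share at 10 counts was added after values were seen, and barcodes are not replicates, so it is a description only.

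**Figure D4:**
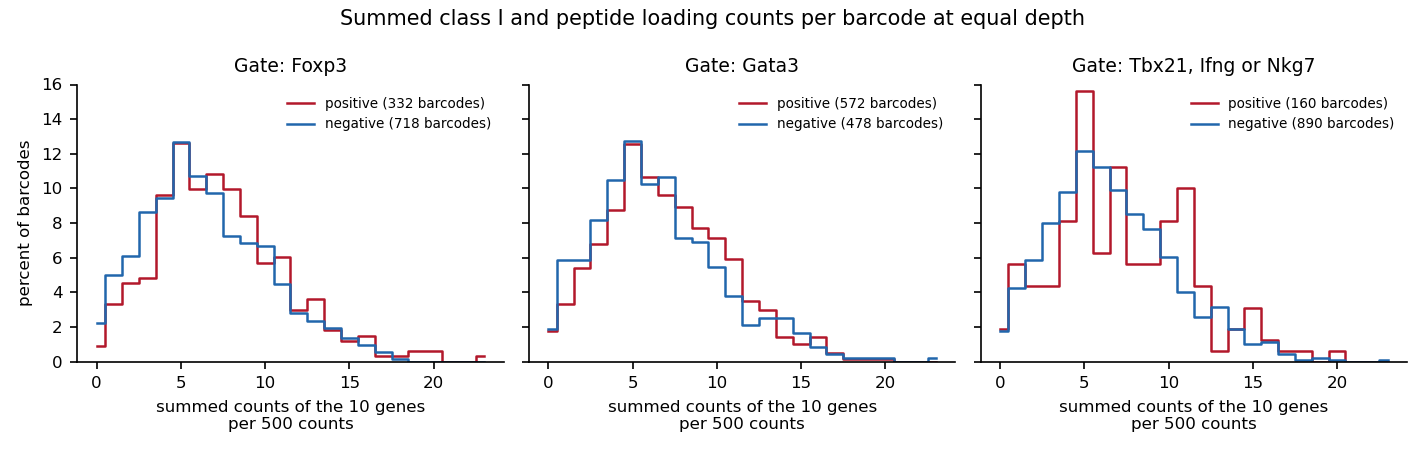
Percent of barcodes (vertical axis) by their summed counts of the 10 genes per 500 counts (horizontal axis) on the positive (red) and negative (blue) side of each gate. The medians are 7 and 6 in each gate and the distributions overlap over most of their range.

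Gates were then combined. Within Foxp3-positive cells, H2-K1 was higher in the 201 barcodes with Gata3 than in the 131 without, at 5462 against 4501 CPM, a log2 ratio of 0.28 (0.16 to 0.40), and 0.21 (0.09 to 0.33) without the 21 barcodes. Tap2 was lower with Gata3, at 205 against 360 CPM, -0.81 (-1.32 to -0.30), but -0.28 (-1.33 to 0.80) in thinned counts and -0.21 with at most 1 count per barcode and gene. The other members with at least 50 counts had intervals that included 0. Tap2 was the 1 of 8 members at least 1.5-fold lower, against 9.16% of 1790 genes, and 0 of 8 were 1.5-fold higher, against 11.4%. An interval above 0 was found for 1 of 8, against 8.38%, and an interval below 0 for 1 of 8, against 9.05%. The summed ratio was 0.12 (0.04 to 0.19), and 0.05 (-0.02 to 0.12) without the 21 barcodes. Median depth was 1415 counts with Gata3 and 1165 without. At equal depth H2-K1 was detected in 87.1% (81.6 to 91.4%) and 84.7% (77.4 to 90.4%) of barcodes, where the intervals overlap. The thinned sum had a median of 7 on both sides.

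Within Foxp3-negative cells, the 371 barcodes with Gata3 had more H2-Q7 than the 347 without, at 1108 against 812 CPM, 0.45 (0.26 to 0.63), and 0.27 (0.09 to 0.46) without the 21 barcodes. Tapbp was at 563 against 432 CPM, 0.38 (0.12 to 0.64), and H2-K1 at 4208 against 3549 CPM, 0.25 (0.16 to 0.34). Without the 21 barcodes Tapbp was at 0.41 (0.14 to 0.68) and H2-K1 at 0.10 (0.01 to 0.19). B2m was at 0.15 (0.06 to 0.24) with all barcodes and -0.0027 (-0.09 to 0.09) without them. At equal depth H2-Q7 was detected in 39.6% (34.6 to 44.8%) of barcodes with Gata3 and 32.3% (27.4 to 37.5%) of those without. For Tapbp the thinned shares were 19.4% (15.5 to 23.8%) and 18.2% (14.2 to 22.6%). For H2-K1 they were 83.3% (79.1 to 86.9%) and 75.8% (70.9 to 80.2%). The intervals overlapped for each of these genes, slightly so for H2-K1. An interval above 0 was found for 4 of 8 members, against 12.9% of 3469 genes, and 0 of 8 were 1.5-fold higher or lower, against 10.9% and 8.24%. Among genes with at least 1000 counts, 26.4% had an interval above 0, as did 3 of 4 members. Without the 21 barcodes these were 14.7% and 1 of 3. Whether the ratios by the Gata3 gate differ between Foxp3-positive and Foxp3-negative cells was not tested, since the table is 1 sample.

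The largest summed ratio of the 6 comparisons was in cells with neither Foxp3 nor Gata3, between the 66 barcodes with a type 1 gate gene and the 281 without. The 10 genes stood at 14042 against 10491 CPM, a log2 ratio of 0.42 (0.33 to 0.51), and at 14042 against 11891 CPM, 0.24 (0.15 to 0.33), without the 21 barcodes. H2-Q7 was at 1289 CPM (1061 to 1551) against 708 CPM (628 to 796), 0.86 (0.54 to 1.19), and B2m at 5099 against 3721 CPM, 0.45 (0.30 to 0.61). Once they were left out, H2-Q7 was at 0.64 (0.31 to 0.96) and B2m at 0.26 (0.10 to 0.42). After thinning, H2-Q7 was detected in 40.9% (29.0 to 53.7%) of positive and 30.2% (24.9 to 36.0%) of negative barcodes, where the intervals overlap. B2m was then detected in 80.3% and 81.1%. The thinned sum had a median of 6 on both sides, with quartiles of 5 and 10 against 3 and 8.

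With all counts, Tap1 at 0.82 (0.04 to 1.55), H2-T23 at 0.65 (0.03 to 1.24), H2-D1 at 0.37 (0.11 to 0.61) and H2-K1 at 0.31 (0.14 to 0.48) were also higher in that comparison. Their intervals included 0 once the 21 barcodes were left out, and in thinned counts H2-T23 was at -0.06, with an interval that included 0. Thinned shares of barcodes were 72.7% against 76.5% for H2-K1, 57.6% against 54.4% for H2-D1 and 10.6% against 6.76% for Tap1. The intervals of these shares overlapped for each gene. At least 1.5-fold higher were 3 of 8 members, H2-Q7, Tap1 and H2-T23, against 17.3% of 1634 genes, and 0 of 8 were 1.5-fold lower, against 19.0%. Once the 21 barcodes were left out, 2 of 8 were at least 1.5-fold higher, H2-Q7 and Tap1, against 14.3% of 1394 genes. Intervals lay above 0 for 6 of 8 members, against 13.5%, and for 2 of 8 against 10.2% without the 21 barcodes. Among genes with at least 1000 counts, 15% had an interval above 0, as did 2 of 2 members. Without the 21 barcodes these were 5.56% and 1 of 2. The epithelial markers stood at 57.6 CPM on the positive side and 7254 CPM on the negative side, and all 9 myeloid markers were at 0 on the positive side, against 544 CPM.

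Over the combinations of gates, 7 classes held at least 30 barcodes. In CPM, the class without a gate gene was lowest for B2m, H2-K1, H2-D1, H2-Q7 and the sum, with or without the 21 barcodes. By the share of barcodes with a count after thinning, it was lowest for none of these single genes. That share was 81.1% with no gate gene and 80.3% with type 1 genes alone for B2m, and 76.5% and 72.7% for H2-K1. For H2-D1 it was 54.4% with no gate gene and 53.8% with Gata3 alone. The intervals overlapped in each. Median depth was 1135 counts with no gate gene and 2013 with all 3. H2-K1 was ordered, from high to low, as all 3 gates (5845 CPM, 5258 to 6479), Foxp3 and Gata3 (5374), Foxp3 alone (4548), Gata3 and type 1 (4468), type 1 alone (4213), Gata3 alone (4165) and none (3404, 3225 to 3590). Neighbours in that order had overlapping intervals in 4 of 6 pairs. Without the 21 barcodes all 6 pairs overlapped, with 3885 CPM (3678 to 4102) in the class without a gate gene.

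H2-Q7 followed another order. It was highest with Gata3 and type 1 genes (1359 CPM, 1115 to 1641) and type 1 genes alone (1289), followed by all 3 gates (1114), Gata3 alone (1066), Foxp3 alone (944), Foxp3 and Gata3 (936) and none (708, 628 to 796). Intervals of neighbours overlapped in 5 of 6 pairs, and in all 6 without the 21 barcodes. Thinned shares of barcodes with H2-Q7 were also highest with Gata3 and type 1 genes (49.1%) and type 1 genes alone (40.9%). They were 30.6% with Foxp3 and Gata3, 30.2% with none, and lowest with all 3 gates (22.6%, 9.59 to 41.1%). B2m ranged from 5099 CPM with type 1 genes alone to 3721 CPM with none, and H2-D1 from 1991 to 1544 CPM between the same classes. Without the 21 barcodes the class with none was at 4254 CPM (4036 to 4480) for B2m and 1726 CPM (1588 to 1872) for H2-D1. Gata3 alone was then at 4347 and 1745 CPM, with overlapping intervals, and H2-D1 was highest with Foxp3 alone (1999 CPM). The orders of H2-K1 and H2-Q7 thus began with different classes, a difference that was not tested. For Tap1, Tap2, Tapbp, H2-T23, Erap1 and Nlrc5 all neighbouring classes had overlapping intervals. Nlrc5 was at 0 counts in the 31 barcodes with all 3 gates, which allows up to 59.6 CPM.

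**Figure D5:**
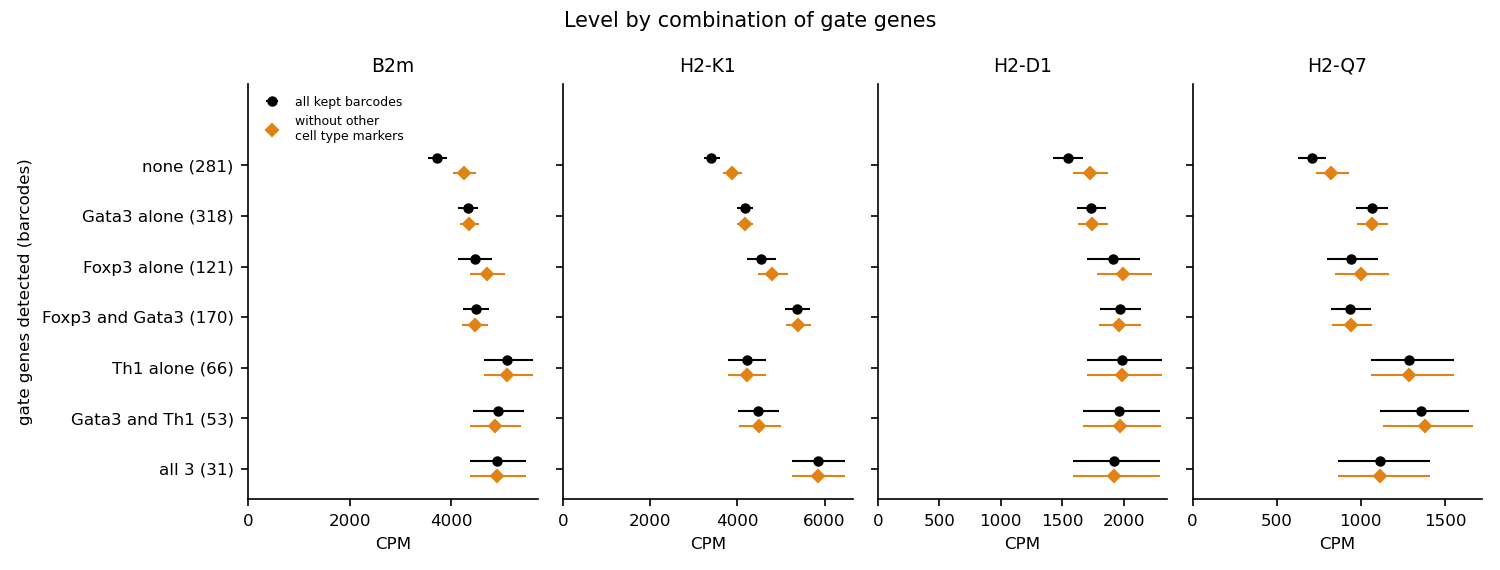
CPM of B2m, H2-K1, H2-D1 and H2-Q7 (horizontal axes, from 0) in the 7 combinations of gate genes with at least 30 barcodes, with exact Poisson 95% intervals, for all kept barcodes (black circles) and without the 21 barcodes with markers of other cell types (orange diamonds). The class without a gate gene has the lowest CPM in each panel, which did not hold for the share of barcodes with a count after thinning.

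Other genes of the pathway were taken from a list of peptide supply, chaperones, further class I genes, and transcription and signal, of which 35 have a column and 23 had at least 50 counts. By Foxp3, 3 of the 23 were at least 1.5-fold higher and 0 lower, against the 10.3% and 11.0% of all genes given above. Among those picked by rule, Ifngr1, a chain of the interferon gamma receptor, was at 1492 against 1066 CPM, 0.48 (0.35 to 0.62), and Calr, the chaperone calreticulin of the loading complex, at 492 against 341 CPM, 0.53 (0.29 to 0.76). Tpp2, a cytosolic peptidase, was at 97.1 against 55.1 CPM, 0.82 (0.24 to 1.39), and Jak1, a kinase of the interferon receptors, at 1148 against 998 CPM, 0.20 (0.05 to 0.35). The other genes past 1.5-fold, named after their values were seen, were Psme2, a subunit of the proteasome activator, at 0.82 (0.20 to 1.44), and the class I-like H2-M3 at 0.96 (0.15 to 1.76). Psme1, the other subunit of that activator, was lower, at 303 against 367 CPM, -0.28 (-0.56 to -0.0049), and Nfyb, a subunit of NF-Y, was at 0.58 (0.03 to 1.13); both were named after their values were seen. With the 21 barcodes left out, the same 3 genes were past 1.5-fold higher and 0 lower, against 10.1% and 9.61% of all genes. Of the 8 genes named here, all but Nfyb, at 0.49 (-0.10 to 1.06), then had an interval without 0 and the same sign.

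By Gata3, 0 of the 23 pathway genes were 1.5-fold higher and 1 was lower, against the 10.1% and 8.23% of all genes. That gene was Tapbpl, which encodes the tapasin-related editor TAPBPR, at 39.7 against 83.9 CPM, -1.08 (-1.73 to -0.45). It rests on 35 and 56 counts, and ratios of these pathway genes were not taken at equal depth. With all counts the Tapbpl ratio was opposite in sign to that of Tapbp, whose difference was not detectable at equal depth. Hspa5, a chaperone of the endoplasmic reticulum, was at 0.26 (0.07 to 0.45), the immunoproteasome subunit Psmb8 at 0.29 (0.03 to 0.55), and Psme1 at -0.27 (-0.52 to -0.02). When the 21 barcodes were left out, Tapbpl was at -1.13 (-1.80 to -0.48), Hspa5 at 0.36 (0.16 to 0.57) and Psme1 at -0.34 (-0.59 to -0.08), while Psmb8 was at 0.12 (-0.14 to 0.38). Tapbpl and Nfyc, which encodes another subunit of NF-Y and was named after its value was seen, were then 1.5-fold lower and 0 of the 23 higher, against 6.98% and 9.44% of all genes.

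By the type 1 gate, 4 of the 23 were at least 1.5-fold higher and 2 lower, against the 11.4% and 14.8% of all genes. Psmb9, an immunoproteasome subunit whose gene neighbours Tap1, was at 174 against 97.6 CPM, 0.83 (0.30 to 1.34). Creb1 was at 0.65 (0.15 to 1.13) and Tpp2 at 0.76 (0.06 to 1.41). Psmb8 was at 420 against 330 CPM, 0.35 (0.03 to 0.66). The others, named after their values were seen, were Nfyb at 0.59 (-0.10 to 1.23), and on the lower side Irf1 at -0.59 (-1.77 to 0.42) and Rfxap at -0.66 (-2.03 to 0.48), each with an interval that includes 0. Psme1, named in the same way, was lower, at 271 against 360 CPM, -0.41 (-0.80 to -0.04), an interval below 0. With those 21 barcodes left out, the 4 genes past 1.5-fold higher and the 2 lower were the same, against 11.2% and 13.7% of all genes. Psmb9 was then at 0.76 (0.23 to 1.27), Creb1 at 0.62 (0.12 to 1.10) and Psme1 at -0.43 (-0.83 to -0.06). The intervals of Tpp2, at 0.69 (-0.0050 to 1.35), and Psmb8, at 0.26 (-0.07 to 0.57), then included 0. The median log2 ratio over the 23 genes was 0.12 by Foxp3, 0.04 by Gata3 and 0.07 by the type 1 gate.

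Cell by cell, correlations between the members were low at equal depth, where the few counts per barcode limit r. Pearson's r was taken on the log of 1 plus the thinned count across the 1050 barcodes. Over the 45 pairs of members it ran from -0.04 to 0.21 with a median of 0.01, the highest being B2m with H2-K1. Without thinning, where depth differs between barcodes, that pair was at 0.47. The genes outside the pathway most like the summed B2m, H2-K1 and H2-D1, among 403 genes compared, were Dusp1 (r = 0.16), Nfkbia (0.14), Srgn (0.13), Zfp36l1 (0.13) and Klrg1 (0.13). These are weak values in sparse counts that share 1 library preparation, and they are given as a description with no test.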

How the data were processed

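The data are 1 table of deposited counts per barcode and gene. Per the submitters' processing notes the authors worked with TopHat2, SAMtools and mm10, and no version is listed. How reads were counted, whether molecular identifiers were collapsed, and which gene models were used is not given in the sources used here. Per the labels' protocols, RNA was primed with oligo dT and amplified by in vitro transcription.

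Levels are pooled counts divided by the pooled total, per 1000000 (CPM), with exact Poisson 95% intervals. Ratios have exact conditional 95% intervals, and shares of barcodes exact Clopper-Pearson 95% intervals. For ratios, 0 on either side was replaced by 3 counts, the floor used; no gene named with a ratio has such a side. Thinning drew 500 counts per barcode (seed 1). The background is all genes with at least 50 counts in the barcodes compared, without gate genes. Tools were Python 3.11.15, numpy 2.4.6, scipy 1.17.1, pandas 2.3.3, biopython 1.88 and, for Scrublet, scanpy 1.11.5. Scrublet called 8 of 1050 barcodes (0.762%) doublets, which were kept. The ratio function was tested on simulated counts. A test across samples was not possible, because barcodes carry no sample.

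The text names all 10 members, the 4 pathway genes per gate with the largest ratio relative to its interval width, and the 5 most correlated genes. The members and lists were chosen with earlier results of these data known. The kappa B and longer interferon response motifs, the background at 1000 counts the share of barcodes with at least 10 summed counts and the pathway genes without barcodes of other cell types were added after values were seen. Some items are not reported here, and the pathway list is counted without them.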

Additional observations from a re-analysis of the deposited data

Results flagged for a closer look

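The 935 barcodes that missed the filters, which no comparison above uses, also held class I transcripts. The 10 genes summed to 5041 CPM there (95% interval 4679 to 5425, 715 counts), against 12657 CPM in the kept barcodes, a log2 ratio of -1.33 (-1.44 to -1.22). B2m was at 1593 CPM (1393 to 1815) and H2-K1 at 1763 CPM (1551 to 1995). Tap2 was at 28.2 CPM on 4 counts, a log2 ratio of -3.12 (-5.00 to -1.75) to the kept barcodes. These barcodes had a median of 88 counts and of 35.6% mitochondrial counts.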

How the results depend on the processing

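All ratios here are log2, positive over negative, for the 10 genes summed unless a gene is named, and the cause of each move was not tested unless stated. Among 608 recomputed values of single members, 520 stayed within the interval of the reported value, 67 moved outside it and 21 reversed a difference whose interval excluded 0. The sign differed from the reported one in 105 of the 608. With under 10% mitochondrial counts the sum was 0.18 by Foxp3, 0.11 by Gata3, 0.094 by Gata3 within Foxp3-negative cells and 0.32 by the type 1 gate in cells with neither Foxp3 nor Gata3. Without the 21 barcodes with markers of other cell types it was 0.17 by Foxp3, 0.069 by Gata3, 0.14 by the type 1 gate, 0.057 by Gata3 within Foxp3-negative cells and 0.24 by the type 1 gate in cells with neither, and B2m by Gata3 was -0.00094 overall and -0.0027 within Foxp3-negative cells. With at least 1000 counts per barcode the sum was 0.25 by Gata3 and 0.20 by Gata3 within Foxp3-positive cells. With a gate at 2 counts it was 0.26 by Foxp3, 0.29 by the type 1 gate and 0.22 by Gata3 within Foxp3-positive cells. With a denominator free of ribosomal and mitochondrial genes it was 0.16 by Foxp3.

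Capping each gene at 1 count per barcode removes most information on B2m and H2-K1 by construction, since 96.7% and 95.05% of barcodes have a count. The capped sum was -0.033 by Foxp3, -0.074 by Gata3, 0.030 by the type 1 gate, -0.17 by Gata3 within Foxp3-positive and -0.026 within Foxp3-negative cells, and 0.20 by the type 1 gate in cells with neither. Capped B2m was -0.11 by Foxp3, -0.13 by Gata3, -0.11 by the type 1 gate, -0.078 by Gata3 within Foxp3-negative cells and -0.0086 by the type 1 gate in cells with neither. Capped H2-K1 was -0.080 by Foxp3, -0.13 by Gata3, -0.082 by the type 1 gate, -0.21 by Gata3 within Foxp3-positive and -0.083 within Foxp3-negative cells, and capped H2-D1 was -0.030 by Foxp3 and -0.033 by the type 1 gate.

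Thinned to 500 counts per barcode, the sum was 0.17 by Foxp3, 0.095 by Gata3, 0.12 by the type 1 gate, 0.0034 by Gata3 within Foxp3-positive and 0.12 within Foxp3-negative cells, and 0.27 by the type 1 gate in cells with neither. H2-Q7 by Gata3 was then -0.0034, Tap1 by the type 1 gate -0.021, and H2-T23 by the type 1 gate in cells with neither -0.062. With gates also taken from thinned counts the sum was 0.17 by Foxp3, 0.11 by Gata3, -0.070 by Gata3 within Foxp3-positive and 0.14 within Foxp3-negative cells, and 0.30 by the type 1 gate in cells with neither. H2-Q7 by Gata3 was then -0.024, Tap1 by the type 1 gate -0.76 and -0.22 in cells with neither, and H2-T23 there -0.00074. As a mean of per-barcode CPM the sum was 0.079 by Gata3, 0.015 by Gata3 within Foxp3-positive and 0.089 within Foxp3-negative cells. Leaving out called doublets moved no member value past its interval.

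The count of all genes past 1.5-fold was 1020 by Foxp3 with at least 50 counts per gene, 2279 with at least 20 and 111 with at least 200. In the same order of minimums it was 877, 2106 and 83 by Gata3, 1253, 2687 and 121 by the type 1 gate, 368, 1416 and 28 by Gata3 within Foxp3-positive cells, 665, 1996 and 64 within Foxp3-negative cells, and 594, 1980 and 44 by the type 1 gate in cells with neither. No paired analysis was possible because the barcodes carry no sample, and leaving out each replicate was not run for the same reason. At these depths Erap1 and Nlrc5, with 54 and 41 counts, and Tap1, Tap2 and H2-T23 after thinning, allow no firm comparison.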
